A study of Mus musculus with 3 samples.

Results

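The microRNA (miRNA) clusters that run from miR-290 to miR-295 (the miR-290 cluster) and over miR-302 and miR-367 (the miR-302 cluster) were examined in exosomes, the small membrane vesicles shed by cells, from cultured mouse mesenchymal stem cells (MSCs). Their members were taken as every mouse miRNA on the array named miR-290 to miR-295, miR-302 or miR-367, whatever its letter or arm, which gave 28 of the 1881 mouse miRNAs measured. Of these, 18 belong to the miR-290 cluster and 10 to the miR-302 cluster, and 14 are 5p arms and 14 are 3p arms, that is, the strands cut from the left and right side of a hairpin. The MSCs were the adherent cells grown from the bone marrow of male wild type C57BL/6 mice aged 4 to 6 weeks and used at passages 3 to 6, in medium with 10% fetal bovine serum. Vesicles were pelleted from the pooled medium of 10 dishes after 24 h of normoxia (N-Exo), of hypoxia (H-Exo), or of hypoxia in the presence of GW4869 (H+G-Exo). GW4869 blocks neutral sphingomyelinase, which makes the ceramide that many exosomes need to bud. A single array stands for each group here, although the submitters mention 3 samples per vesicle type, and pooling of RNA before hybridization is not stated. No difference below therefore has a replicate check, and no test across samples was possible.

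Both clusters are best known from mouse embryonic stem cells and the early embryo, where each is made as a single precursor RNA that holds several hairpins. Their best known guide strands are 3p arms, several of which share the seed AAGUGCU, the stretch near the 5′ end through which a miRNA pairs with its targets. In embryonic stem cells these guides promote cell division by repressing inhibitors of the cell cycle, and they act against the let-7 family, which takes over as cells differentiate. The 5p arms lack that seed, and miR-367-3p carries the seed of the miR-25 and miR-92 family instead. Neither cluster is a known feature of adult stromal cells.

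Mature sequences were available for 26 of the 28 members in RefSeq (GRCm38.p6), and no entry was given for miR-292a-3p and miR-302a-3p. The AAGUGCU guides are shown first because the clusters are best known for them, with the seed (bases 2 to 8) in capitals. The members of the miR-290 cluster lie on chromosome 7, miR-294-3p at chr7:3220691-3220712, and those of the miR-302 cluster on chromosome 3, miR-302b-3p at chr3:127545275-127545297.
miR-291a-3p: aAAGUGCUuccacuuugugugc
miR-294-3p: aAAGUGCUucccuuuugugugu
miR-295-3p: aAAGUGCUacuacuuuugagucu
miR-302b-3p: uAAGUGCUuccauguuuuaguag
miR-302d-3p: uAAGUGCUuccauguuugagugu

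The 6 5p arms found on at least 1 array come next, again with the seed in capitals. They lie on the plus strand between chr7:3218639-3218660 (miR-290a-5p) and chr7:3220779-3220800 (miR-295-5p).
miR-290a-5p: aCUCAAACuaugggggcacuuu
miR-292a-5p: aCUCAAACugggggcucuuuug
miR-291a-5p: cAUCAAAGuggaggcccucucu
miR-291b-5p: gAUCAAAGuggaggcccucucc
miR-294-5p: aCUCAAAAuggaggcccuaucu
miR-295-5p: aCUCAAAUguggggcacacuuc

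The other members that the results turn on are 3 detected 3p arms and miR-367-3p. MiR-290a-3p is the 1 sense-strand 3p arm that was detected, and miR-290b-3p and miR-292b-3p are cut from hairpins annotated on the opposite strand of the miR-290a and miR-292a hairpins.
miR-290a-3p: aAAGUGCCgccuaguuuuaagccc
miR-290b-3p: aAGUGCCCccauaguuugagua
miR-292b-3p: aAGAGCCCccaguuugaguau
miR-367-3p: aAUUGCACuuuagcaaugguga

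Neither cluster was found as a whole, and no guide with the AAGUGCU seed was detected in any of the vesicle preparations. A probe was called detected where more than 50% of its replicate spots were marked well above background by the scanner software, and a miRNA where 1 or more of its probes was. By this rule 7 of the 28 members (25%) were detected in N-Exo, 7 (25%) in H-Exo, then 9 (32.1%) with GW4869, in H+G-Exo. Over all 1881 miRNAs the shares were 36.7%, 31.3% and 36.1% on the same arrays. All detected members belong to the miR-290 cluster, at 7, 7 and 9 of 18, against 0 of 10 members of the miR-302 cluster on each array. In these bulk preparations, fewer vesicles or cells that carry a miRNA and less of it in each cannot be told apart.

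Detection was also counted by arm and by strand. Of the 14 5p members, 4 (28.6%) were detected in N-Exo, the same number in H-Exo, but 6 (42.9%) in H+G-Exo. Of the 14 3p members 3 (21.4%) were detected on each array. The shares over all miRNAs named as 5p arms were 41.0%, 36.1% and 40.6% of 775, and over those named as 3p arms 29.6%, 23.4% and 28.0% of 785, so more 5p than 3p arms were detected on the whole array too. On the sense strand of the miR-290 cluster, 4, 4 and 6 of 7 5p arms were detected against 1 of 7 3p arms on each array. The miR-290b and miR-292b hairpins of the opposite strand showed the reverse, with 0 of 2 5p arms and 2 of 2 3p arms on each array.

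**Figure D1:**
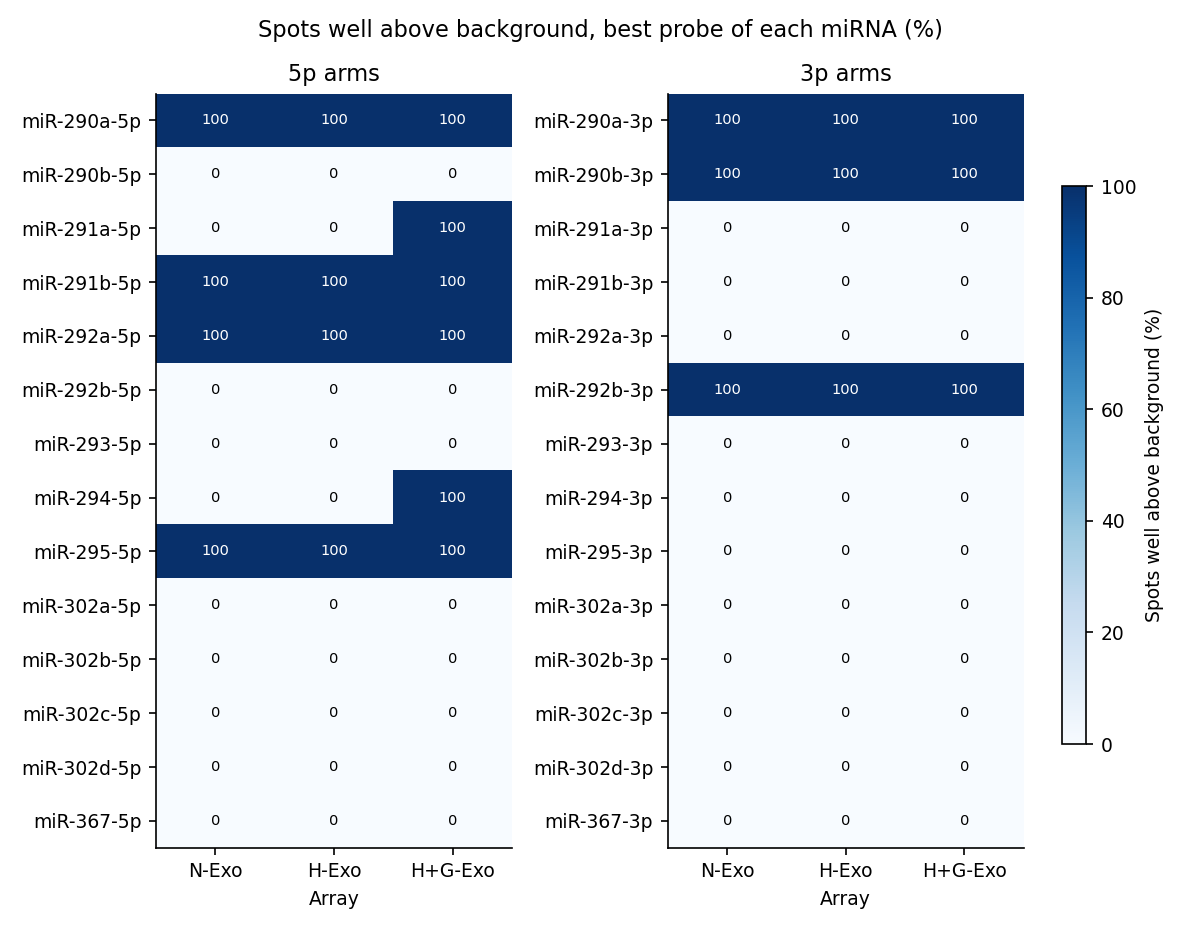
Percent of replicate spots well above background, for the probe of each miRNA with the highest share, with the 5p arms at left, the 3p arms at right and the 3 arrays as columns. Each cell is either 0 or 100: 6 5p arms and 3 3p arms, all of the miR-290 cluster, reach 100 on at least 1 array, and miR-291a-5p and miR-294-5p do so in H+G-Exo alone.

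Paired by hairpin, miR-290a was the single hairpin of 14 with both arms detected on an array. On both the N-Exo and the H-Exo array, miR-291b, miR-292a and miR-295 were detected by the 5p arm alone, miR-290b and miR-292b by the 3p arm alone, and 8 hairpins by neither. In H+G-Exo, miR-291a and miR-294 joined those with the 5p arm alone, which made 5 of 14 (35.7%), and 6 hairpins (miR-293, miR-302a to miR-302d and miR-367) were detected by neither arm. Of the 723 hairpins with both arms on the array, 30.4% were detected by the 5p arm alone in H+G-Exo, 17.0% by the 3p arm alone and 10.4% by both. In N-Exo, 28.8% of the 723 were detected by the 5p arm alone, 16.6% by the 3p arm alone and 42.5% by neither. The H-Exo shares were 28.1%, 14.9% and 49.0%. The members' shares on both of these arrays were 21.4%, 14.3% and 57.1%, in the same order.

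The 5 members with the seed AAGUGCU (miR-291a-3p, miR-294-3p, miR-295-3p, miR-302b-3p and miR-302d-3p), which repress cell-cycle inhibitors in embryonic stem cells, were detected on 0 of 3 arrays. Among the 1608 miRNAs of the array with a RefSeq sequence, no other carries that seed. The related 3p arms miR-291b-3p (seed AAGUGCA) and miR-302c-3p (AGUGCUU) were not detected either. Of the 3p arms with a seed that begins AAGUGC, miR-290a-3p (AAGUGCC) was the one detected. In contrast, 5 of the 6 miRNAs whose seed is AAAGUGC, the same letters moved by 1 base, were detected on each array. They belong to the miR-17 family, a growth-promoting family of dividing cells, and miR-20a-5p gave a scaled signal of 8.21 ± 0.324 on the N-Exo array, 7.19 ± 0.312 on H-Exo and 2.57 ± 0.103 on H+G-Exo (SD over 15 spots of 1 probe each). The sequence of miR-20a-5p is shown to make the shift of the seed visible.
miR-20a-5p: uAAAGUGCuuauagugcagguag

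No spot of the 31 miR-302 cluster probes was well above background on any array. Their mean processed signals, in the scanner's units, ran from -2.998 to 13.5 in N-Exo, from -2.67 to 7.85 in H-Exo, then from -3.99 to 4.21 in H+G-Exo. The lowest signal of a detected probe on these arrays was 18.8, 15.3 and 17.6, so every probe of the cluster lay below it. The highest values were those of miR-302c-5p in N-Exo and H-Exo, whereas miR-367-5p was highest in H+G-Exo. The 9 members of the miR-290 cluster that were detected on no array had 24 probes, with signals between -2.65 and 7.11. Over the 19 undetected members of both clusters, 0 of 550 spots passed the mark in N-Exo, 0 of 538 in H-Exo, 0 of 552 in H+G-Exo. MiR-367-3p shares its seed AUUGCAC with 5 other miRNAs on the array, among them miR-25-3p and miR-92a-3p, and 3 of those 5 were detected on at least 1 array.

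For the detected members, the signal of the brightest probe was scaled so that 1 stands for the 75th percentile of those probes of the same array that all 3 arrays detected. Each probe is compared with itself between arrays, since probes of different sequence do not share a scale. A member was called higher or lower where both arrays detected it and the values lay at least 2-fold apart and by more than 2 standard errors over its spots, which is technical error of 1 array only.

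The 5p arms gave the largest differences between H+G-Exo and the other arrays. MiR-292a-5p, the strand opposite the guide miR-292a-3p, had a scaled signal of 0.197 ± 0.0289 in N-Exo (SD, n = 8 spots), 0.296 ± 0.0222 in H-Exo (n = 6), and 0.613 ± 0.00638 in H+G-Exo (n = 4). H-Exo lay above N-Exo with this scaling but below it in unscaled signal (82.1 ± 12.1 in N-Exo, 69.5 ± 5.21 in H-Exo, then 287 ± 2.99 in H+G-Exo). H-Exo and N-Exo therefore have no settled order, while H+G-Exo was the highest array both ways, with a range of mean and SD apart from the others. MiR-291b-5p, the 5p arm of a hairpin whose 3p arm was not detected, had 0.0774 ± 0.0118 in N-Exo (n = 7), 0.113 ± 0.00649 in H-Exo (n = 6), then 0.186 ± 0.0119 in H+G-Exo (n = 6). Here too H+G-Exo was the highest array both ways and apart from the others, and H-Exo lay above N-Exo when scaled and below it when not (26.7 against 32.3). The lowest of these signals was close to the floor of 0.0653, the largest among the per-array minimum signals of detected probes.

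MiR-291a-5p and miR-294-5p, 5p arms of hairpins whose 3p arms carry the AAGUGCU seed, were detected in H+G-Exo alone. There miR-291a-5p had a scaled signal of 0.133 ± 0.0241 (n = 7) and miR-294-5p of 0.163 ± 0.0540 (n = 8). Neither was well above background in N-Exo or H-Exo, with no spot of any of their probes passing the mark there. MiR-291a-5p and miR-291b-5p share the seed AUCAAAG, and both were detected in H+G-Exo.

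MiR-290a-5p, whose seed CUCAAAC it shares with miR-292a-5p and the undetected miR-293-5p, had 0.538 ± 0.0895 in N-Exo (n = 8), 0.631 ± 0.0978 in H-Exo (n = 8), then 0.715 ± 0.0458 in H+G-Exo (n = 7). Its N-Exo and H-Exo values overlapped within their SD when scaled, and unscaled H-Exo was the lower (148 against 225). MiR-295-5p, the 5p arm of the last hairpin of the cluster, had 0.399 ± 0.147 in N-Exo, 0.528 ± 0.105 in H-Exo, then 0.284 ± 0.0663 in H+G-Exo (n = 7 each). With this scaling it was lowest in H+G-Exo, against the other 5p arms. In unscaled signal H-Exo was the lowest (167 in N-Exo, 124 in H-Exo, then 133.3 in H+G-Exo), so the order of its arrays depends on the scaling. Its spots in N-Exo had the largest SD of any detected member.

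The 3 detected 3p arms varied little with this scaling. MiR-290a-3p had 0.0868 ± 0.00621 in N-Exo (n = 6), 0.1001 ± 0.0209 in H-Exo (n = 8), then 0.0834 ± 0.00515 in H+G-Exo (n = 8). MiR-290b-3p had 0.231 ± 0.0179, 0.253 ± 0.0202 and 0.234 ± 0.0146 on the same arrays (n = 15 each). MiR-292b-3p had 0.237 ± 0.0195, 0.277 ± 0.0222 and 0.246 ± 0.0114 (n = 15 each). Scaled, H-Exo was the highest array for all 3, and the values of N-Exo and H+G-Exo overlapped within their SD. Unscaled, H-Exo was the lowest for all 3, by 1.52-fold to 1.63-fold against N-Exo and by 1.66-fold to 1.85-fold against H+G-Exo, so its place depends on the scaling.

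**Figure D2:**
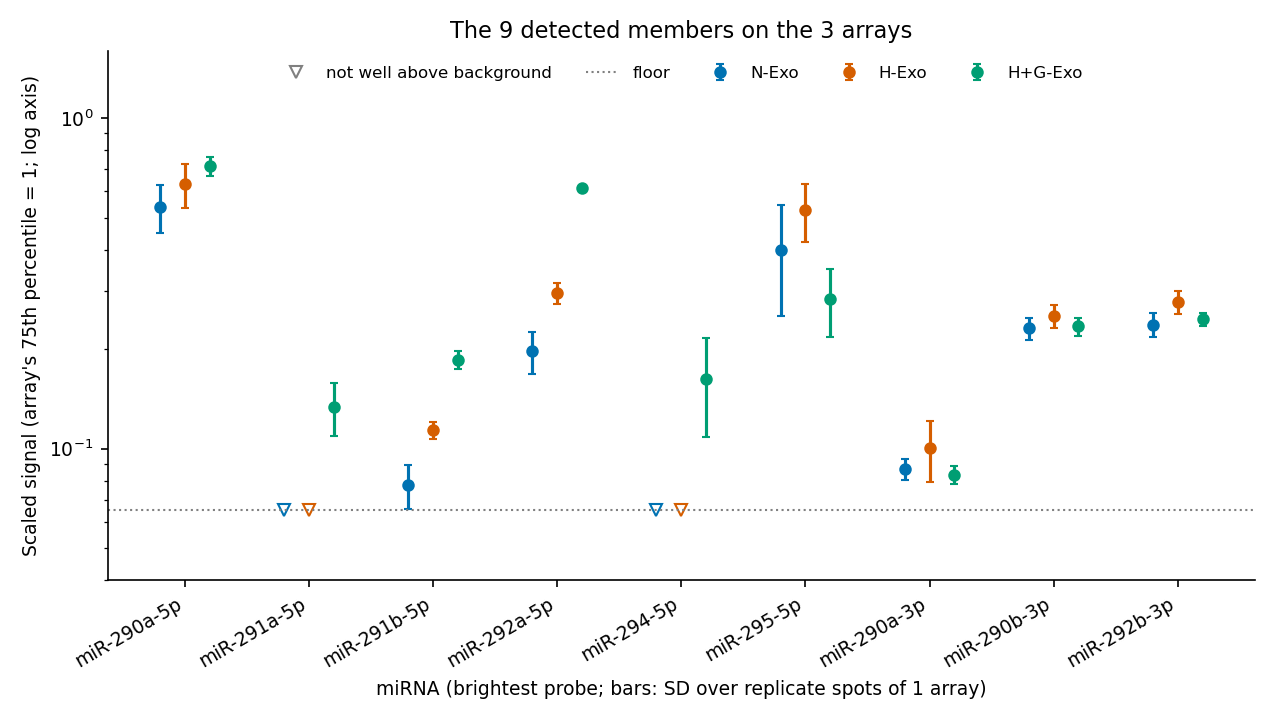
Scaled signal of the 9 detected members on a log axis, 1 point per array (N-Exo, H-Exo, H+G-Exo), with bars for the SD over replicate spots of that array. Open triangles at the floor (dotted line) stand for arrays on which the miRNA was not well above background. MiR-292a-5p lies at 0.197 in N-Exo and at 0.613 in H+G-Exo, while miR-290b-3p stays between 0.231 and 0.253 with this scaling.

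The first comparison, H-Exo against N-Exo, asks what hypoxia changed in the vesicles. Of the 7 members measured on both arrays, 0 were called higher and 0 lower, where 4.3% of the 582 miRNAs measured on both were called higher and 10.7% lower. The 7 log2 differences lay between 0.13 (miR-290b-3p) and 0.59 (miR-292a-5p, SE over spots 0.087), with a median of 0.23. The median over all 582 was 0.34, so the members' median was 0.11 below it. All 7 were above 0 with this scaling and all 7 below 0 without any, since the unscaled H-Exo signals were weaker throughout (unscaled log2 differences of -0.70 to -0.24), so no direction is given here. The median over all miRNAs turned with them, to -0.49. Relative to the median of all miRNAs, miR-292a-5p lay above by 0.24 to 0.26 over the 7 scalings tried, and miR-290b-3p below (-0.22 to -0.18). Apart from quantile normalization, these scalings use at most 1 factor per array, which moves a member and that median alike. The narrow ranges follow mostly from this.

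The next comparison, H+G-Exo against H-Exo, asks what GW4869 changed under hypoxia. The H-Exo array enters this comparison and the one before it. MiR-292a-5p was called higher, at 2.07-fold (log2 difference 1.05, SE over spots 0.045), the single call among 7 members measured on both arrays, where 6.18% of 566 miRNAs were called higher and 26.1% lower. Its difference was at the 95.1 percentile of those 566. No member was called lower. MiR-291b-5p differed by 1.64-fold (0.71, SE 0.051) and miR-295-5p by -0.89 (SE 0.17), neither past 2-fold. Both rest on the scaling, since miR-291b-5p was called higher under the other 6 scalings (1.04 to 1.71). Over all measured miRNAs, 12.0% to 32.6% were called higher under those 6. MiR-291b-5p rests on other steps too, at 0.87 with outlier spots kept and 0.55 with the software's total per miRNA. It stood at 0.27 with the mean over its probes and at -0.11 with normexp background correction, so its direction was not kept. MiR-295-5p ran from -0.89 to 0.10 over the 7 scalings, above 0 without scaling, so no direction is given for it. The median of the 7 members was -0.11, beside -0.42 over all 566, which puts the members 0.31 above that median. Under the other scalings they lay 0.32 to 0.40 above, where only quantile normalization (0.40) could move this value much. The call of miR-292a-5p was lost when spots marked as outliers were kept (0.94, as 2 more spots took the H-Exo signal from 0.296 to 0.329 and 4 more took that of H+G-Exo from 0.613 to 0.631), with the mean over its probes (0.66), with normexp background correction (0.54) and with the software's total per miRNA (1.00, just under 2-fold). Without scaling the median over all miRNAs was 0.57 in place of -0.42.

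Detection in H+G-Exo alone gives only a lower bound of the fold. Against H-Exo, the brightest probes put miR-291a-5p at least 2.04-fold and miR-294-5p at least 2.49-fold higher in H+G-Exo, with the dim array set at its lowest detected signal. These bounds are from mean signals and carry no error over spots. The other detected probe was dimmer in H+G-Exo, at 0.0857 for miR-291a-5p and 0.0423 for miR-294-5p. The latter lay below the lowest detected H-Exo signal (0.0653) and so gives no bound. Of the 109 miRNAs detected in H+G-Exo and not in H-Exo, 11% had such a bound of 2 or more. Both bounds stayed at or above 2 under each of the 7 scalings, up to 4.08 for miR-291a-5p and 4.97 for miR-294-5p without scaling. The median log2 difference over all miRNAs measured on both arrays rose as well, from -0.42 to between -0.12 and 0.57 under the other scalings. The share of all miRNAs with such a bound was not counted there. Bounds were listed for the 7 scalings only and not with normexp. Without scaling, 3 members passed the rule for a call, with miR-290a-5p (2.26-fold) and miR-291b-5p (3.26-fold) beside miR-292a-5p (4.14-fold). By the same rule 32.6% of the 567 miRNAs then measured on both arrays were higher, with a median log2 difference of 0.57.

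H+G-Exo against N-Exo compares vesicles of hypoxic cells given the compound with those of normoxic cells, and shares an array with each comparison above. Here 2 of 7 measured members were called higher and 0 lower, where 18.3% of 606 miRNAs were called higher and 26.1% lower. MiR-292a-5p was 3.12-fold higher (log2 difference 1.64, SE over spots 0.075) and miR-291b-5p 2.40-fold higher (1.26, SE 0.092). MiR-290a-5p stood at 0.41 (SE 0.092), miR-295-5p at -0.49 (SE 0.24), and the 3p arms between -0.06 and 0.05. All 3 values of the 3p arms were within a log2 difference of 0.1, and each was smaller than that of miR-290a-5p. The members' median was 0.05, beside -0.05 over all 606 miRNAs. By their brightest probes, miR-291a-5p was at least 2.96-fold and miR-294-5p at least 3.60-fold higher, where 37.7% of the 69 miRNAs detected in H+G-Exo and not in N-Exo had a bound of 2 or more. The other detected miR-294-5p probe (0.0423) lay below the lowest detected N-Exo signal (0.0451) and gives no bound. The calls of miR-292a-5p and miR-291b-5p held under each of the 7 scalings, with log2 differences of 1.64 to 1.95 and 1.26 to 1.57. Over all measured miRNAs, 18.3% to 26.9% were called higher under those scalings. Apart from quantile normalization, they move all miRNAs of an array alike. The call of miR-291b-5p was lost with normexp (0.08), the software's total (0.80) and the deposited value table (0.85), and with the mean over its probes, which disagreed among themselves.

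**Figure D3:**
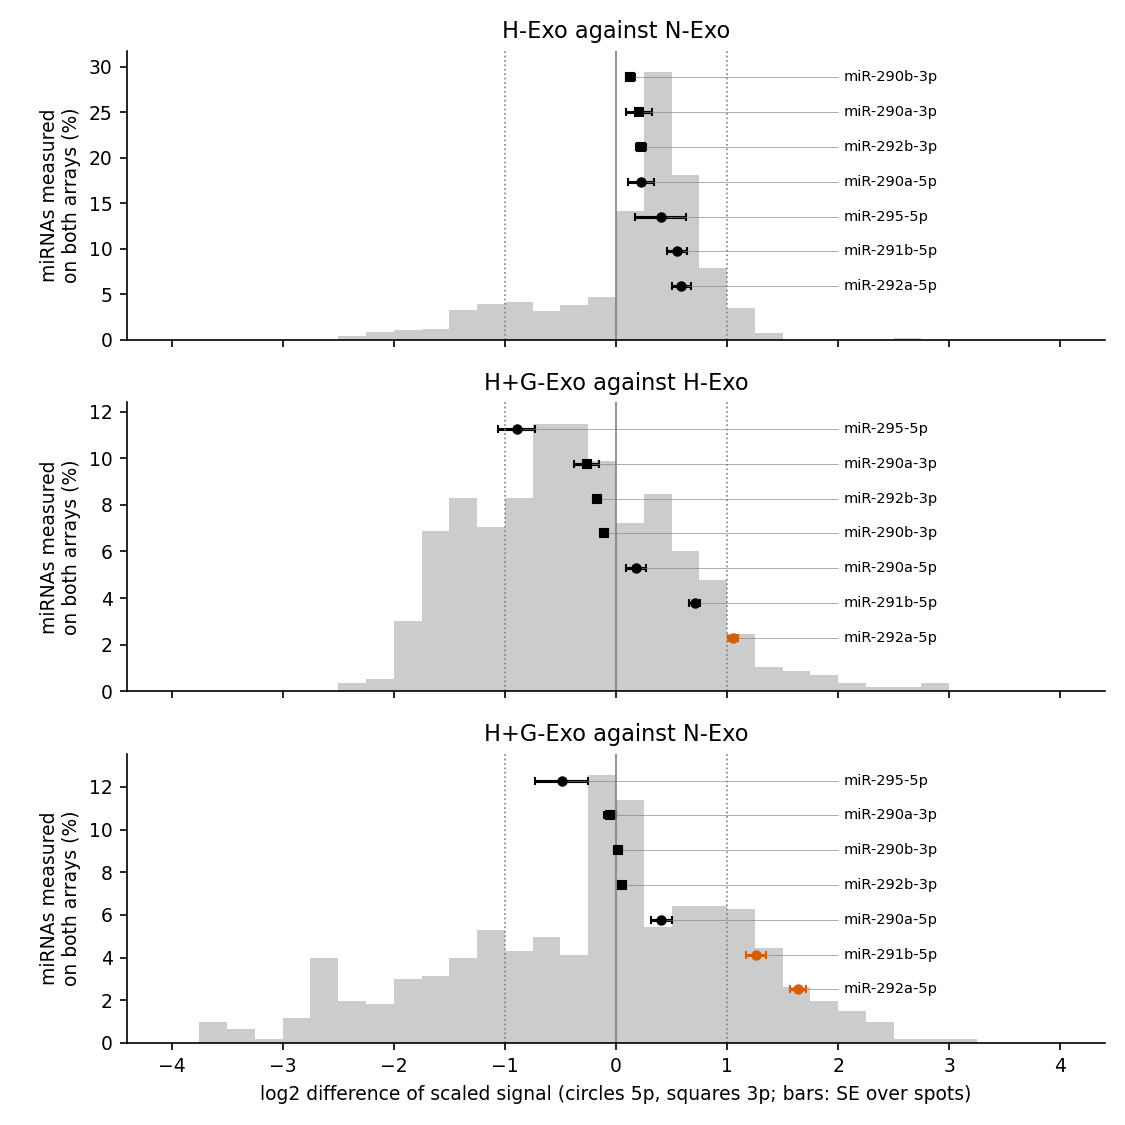
Log2 differences of scaled signal for the 7 members measured on both arrays of each comparison (circles, 5p; squares, 3p; bars, SE over spots; orange, called higher), over the distribution of all miRNAs measured on both (grey bars, percent of miRNAs per bin of 0.25). Dotted lines mark 2-fold. MiR-292a-5p is the right-most member in each panel, at 0.59, 1.05 and 1.64, and miR-295-5p the left-most in both panels with H+G-Exo.

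The probes of a miRNA were nested, each longer than the last by 1 base toward the 5′ end of the miRNA, and they did not respond alike. MiR-294-5p and miR-291a-5p are shown because detection differed between probes that are 1 base apart. Probes are written 5′ to 3′ as on the array, with the added base in capitals.
miR-294-5p, shortest probe: agatagggcctc
miR-294-5p, next probe: agatagggcctcC
miR-294-5p, next longer probe: agatagggcctccA
miR-294-5p, longest probe: agatagggcctccaT
In H+G-Exo, 0 of 5 spots of the shortest miR-294-5p probe were well above background, 8 of 8 of the next, 1 of 7 of the next longer and 4 of 7 of the longest. So 2 of its 4 probes met the detection rule, and the others did not. MiR-291a-5p behaved in a like way.
miR-291a-5p, shortest probe: agagagggcctc
miR-291a-5p, next probe: agagagggcctcC
miR-291a-5p, next longer probe: agagagggcctccA
miR-291a-5p, longest probe: agagagggcctccaC
Of these, 0 of 8, 7 of 7, 1 of 7 and 7 of 7 spots were well above background in H+G-Exo. For both miRNAs the probe that gained a C met the rule, and the next one, which gained an A, did not.

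MiR-292a-5p was higher in H+G-Exo with each of its 3 measured probes, by 2.09-fold to 3.12-fold against N-Exo and by 1.23-fold to 2.07-fold against H-Exo. Its brightest probe, the shortest of the 3, gave the highest ratio in both.
miR-292a-5p, brightest probe: caaaagagccccC
Probes of miR-291b-5p disagreed against N-Exo, with ratios from 0.902 to 2.40 over 4 probes, of which the brightest and longest gave 2.40.
miR-291b-5p, brightest probe: ggagagggcctcC
The 3 measured probes of miR-295-5p gave 0.712 to 1.11 against N-Exo, on both sides of 1, and 0.539 to 0.822 against H-Exo. Without scaling the ratios against H-Exo were 1.07 to 1.64, all above 1, so the side of 1 depends on the scaling there. The 4 probes of miR-290a-5p gave 1.28 to 1.33 against N-Exo, and so agreed closely.

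**Figure D4:**
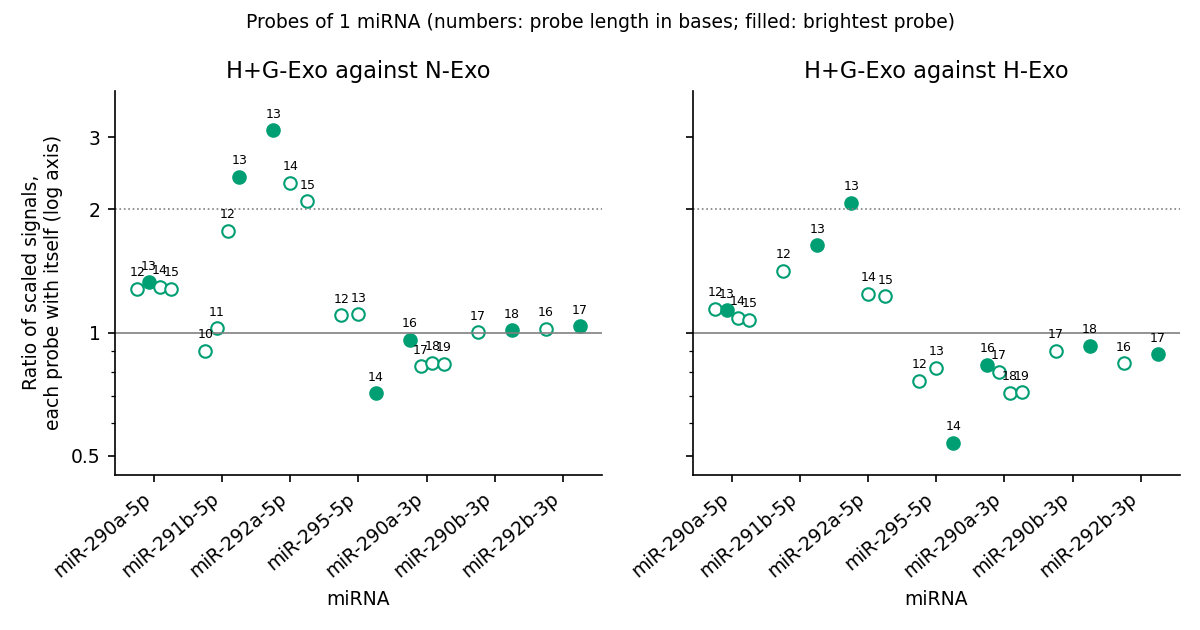
Ratio of scaled signals of H+G-Exo to N-Exo (left) and to H-Exo (right) on a log axis, 1 point for each probe detected on both arrays, with probe length in bases beside it and the brightest probe filled. Probes of miR-292a-5p run from 2.09 to 3.12 at left and from 1.23 to 2.07 at right, and those of miR-291b-5p from 0.902 to 2.40 at left.

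The sense and opposite-strand members overlap in sequence. They are shown because each probe for one of them carries letters of the other, with complementary bases in capitals.
miR-292a-5p, complementary part: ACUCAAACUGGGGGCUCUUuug
miR-292b-3p, complementary part: AAGAGCCCCCAGUUUGAGUau
MiR-292a-5p (plus strand, chr7:3219200-3219221) and miR-292b-3p (minus strand, chr7:3219198-3219218) are complementary over 19 bases, and both were detected on all 3 arrays. MiR-290a-5p and miR-290b-3p are complementary over 21 bases and were likewise both detected on 3 arrays. MiR-290a-3p and miR-290b-5p are complementary over 22 bases, and there miR-290a-3p was detected on 3 arrays and miR-290b-5p on 0. In H+G-Exo against N-Exo, miR-292a-5p stood at a log2 difference of 1.64 and its complement miR-292b-3p at 0.05, so the 2 strands did not move by the same amount.

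Detected members had probes of distinct composition. All 9 had a run of GGG or CCC in at least 1 probe, and of the 12 members with such a run 9 were detected (75%), against 0 of the 16 without. The run was chosen after the values were seen, and probes were read as written, which covers a G run and a C run alike. Among all 1881 miRNAs, 744 (39.6%) had such a run in a probe, of which 57.7% were detected on at least 1 array, against 29% of the 1137 without. The brightest probes of the 9 detected members had a median GC content of 61.5% (50% to 76.9%) and a median length of 14 bases, against 42.9% (33.3% to 66.7%) and 19 bases for the 19 others. The part of probe composition in the detection of these members was not tested.

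The labelled cell type was checked against miRNAs of MSCs and fibroblasts. Of a list of 10, 10 were detected in N-Exo, 9 in H-Exo, again 10 in H+G-Exo, while 0 of 6 epithelial and 0 of 2 endothelial miRNAs and 2 of 6 blood cell miRNAs were detected on each array. Of 5 muscle and heart miRNAs, 1 or 2 were. The let-7 family, which the cluster guides oppose in embryonic stem cells, was detected at 9 of 9 on each array. Its members were lower in 5 of 9 cases in H-Exo against N-Exo, and in 9 of 9 in both comparisons with H+G-Exo (median log2 differences -1.04, -1.62 and -2.47), where 10.7%, 26.1% and 26.1% of all measured miRNAs were. Without scaling the let-7 counts were 9, 0 and 9 of 9, the 0 standing in H+G-Exo against H-Exo. Of all measured miRNAs, 23.0%, 1.23% and 23.2% were then lower, in the same order of comparisons. Relative to the median of all miRNAs, the let-7 median of H+G-Exo against H-Exo was -1.20 to -1.18 over the 7 scalings. Only quantile normalization among them could move this value much. The MSC and fibroblast list was lower in 7 of 9, 6 of 9 and 10 of 10, against the same shares over all miRNAs. Without scaling it was lower in 9 of 9, 0 of 9 and 10 of 10, against the 23.0%, 1.23% and 23.2% over all miRNAs. Its summed scaled signal was 316 for N-Exo, 139 for H-Exo and 55.4 for H+G-Exo. Of the miR-17 family and miR-467 relatives by seed, 1 of 6, 2 of 5 and 4 of 5 were lower in the same order of comparisons. Without scaling 5 of 6, 0 of 5 and 3 of 5 of these relatives were lower. The shares over all miRNAs are those given beside let-7, with and without scaling. In H+G-Exo the MSC and fibroblast sum was lowest and miR-292a-5p and miR-291b-5p highest, and the part of the lists in those differences was not tested. No member of either cluster was called lower in any of the 3 comparisons under the 7 scalings, with 7 members measured in each. Of all measured miRNAs, 10.7% to 23.4%, 1.23% to 26.1% and 20.3% to 27.0% were called lower there, in the same order of comparisons.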

How the data were processed

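RNA of 3 exosome preparations was hybridized to 3 Agilent mouse miRNA arrays of 1 colour (Cy3, per the labels), on 1 slide with 1 scan. The labels' protocols name a cRNA kit and a cDNA kit, so how the RNA was labelled is uncertain. The authors quantified spots with Agilent Feature Extraction 10.7.1.1 (per the submitters' processing notes) and deposited background-subtracted intensity per spot, not scaled between arrays. The deposited value table was read as log2 values and used only as an alternative. Its medians were -3.32 (N-Exo), -3.00 (H-Exo), -3.30 (H+G-Exo) and its column means were equal, while its scaling stays unknown.

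Each array held 56430 miRNA spots (840 of members, 87 probes). Spots marked as outliers (35 to 41 of the members') were left out, and no member spot was saturated. The mean over spots was divided by the 75th percentile (417, 235 and 469 in the order N-Exo, H-Exo, H+G-Exo), and a miRNA took its brightest probe. A miRNA entered a comparison where that probe was detected on both arrays. The number of arrays, 1 a group, limits the precision, and errors over spots are technical. In a simulated H-Exo against N-Exo comparison (1881 miRNAs), 99.4% of 157 changed miRNAs that were measured were recovered and 0.0% of 419 unchanged ones called. All its arrays were built from the N-Exo array, with spot noise only and planted changes larger than 2-fold. Variation between arrays was not simulated, so these shares check the working of the rule and not the calls made here. Python 3.11.15, numpy 2.4.6, pandas 2.3.3 and limma 3.58.1 (R 4.3.3; normexp alternative) were used. Members and lists were chosen with earlier results of these data known. Every member detected on 1 or more arrays was named with its values, and the others by counts and ranges. RefSeq sequences are on GRCm38.p6, and the array design's own coordinates, on another build, were not used.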

Additional observations from a re-analysis of the deposited data

How the results depend on the processing

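No paired analysis was possible because each group was 1 array, and for the same reason no array could be left out. The numbers of members detected (7, 7 and 9 for N-Exo, H-Exo, H+G-Exo) stayed the same, with the same members each time, whether any or every spot of a probe had to be above background and with outlier spots kept. Over all miRNAs the numbers detected on these arrays were 690, 589 and 679 by the main rule. They rose to 810, 696 and 790 with any spot and fell to 598, 501 and 604 with every spot. With outlier spots kept they were 692, 589 and 680. The software's own detection mark gave 9 members in N-Exo, adding miR-291a-5p and miR-302c-5p. By that mark 817, 702 and 797 of all miRNAs were detected. The members' share of all detected miRNAs therefore depends on the rule. For H-Exo against N-Exo, 0 members were called higher or lower under all 12 alternatives. Over all measured miRNAs, 0.172% to 7.13% were then called higher and 7.20% to 23.4% lower. In H+G-Exo against H-Exo, 1 member was called higher. The count became 2 with the 75th percentile over all probes, the median or quantile normalization, and 3 without scaling or with labelling or hybridization spike-ins. The share of all measured miRNAs called higher rose as well. It was 6.18% with the main scaling, 12.0% to 14.6% where the count was 2, and 27.7% to 32.6% where it was 3. The count became 0 with normexp, the mean over probes, outlier spots kept or the software's total, where miR-292a-5p had log2 differences of 0.54, 0.66, 0.94 and 1.00. Of all measured miRNAs, 3.00%, 5.61%, 5.47% and 12.5% were called higher there, in the same order. In H+G-Exo against N-Exo, the 2 called higher became 1 (miR-292a-5p) with normexp, the mean over probes or the software's total. Of all measured miRNAs, 9.56%, 16.1% and 23.0% were called higher there, in the same order. The software's total also called 1 member lower, miR-295-5p, in both comparisons (-1.60 and -1.48), where its N-Exo and H-Exo totals hold that of miR-292b-3p and its H+G-Exo total does not. MiR-291b-5p stood at 0.08 with normexp against N-Exo. The deposited value table also called 2 there, miR-292a-5p and miR-291a-5p, the latter from a listed value of -1.96 in N-Exo, where no spot was well above background. That table called 27.1% of all measured miRNAs higher in H+G-Exo against N-Exo. Of all calls over all miRNAs, the share that was higher was 28.7% for H-Exo against N-Exo and 0.741% without scaling, 19.1% for H+G-Exo against H-Exo and 96.4% without scaling, and 41.3% for H+G-Exo against N-Exo and 57.0% with the median. The other causes were not tested. Signals near the floor limit miR-290a-3p and miR-291b-5p most.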

Other observations

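The scanner software's own total per miRNA held more than the miRNA's probes for 4 members. In N-Exo the listed total of miR-302c-5p was 354, while its own probes summed to 2.03. With 3 of its own 4 probes (0.0158 together) left out of the sum, the rest was the total of miR-301a-3p. Each match held within 0.001, with 1 or more weak own probes left out of the sum. For miR-291a-5p the listed total was 53.2 in N-Exo and 75.1 in H+G-Exo, with the total of miR-290b-3p (51.5 and 58.8) in it. For miR-295-5p it was 84.3 in N-Exo and 60.3 in H-Exo, with that of miR-292b-3p (53.0 and 36.2) and without 1 of its own 4 probes (1.01 and 1.003), while its total in H+G-Exo (31.7) was that of its own probes alone. For miR-294-5p the total was 77.5 in H+G-Exo, again with that of miR-292b-3p (61.8). The software's mark for miR-302c-5p and miR-291a-5p in N-Exo therefore stands beside probes of which no spot was well above background. The deposited value table did not follow these totals: its value lay a median of -0.27 from log2 of the total over the miRNAs of N-Exo, but -7.69 for miR-291a-5p and -1.63 for miR-295-5p. It has 9, 7 and 9 members above its lowest value in N-Exo, H-Exo and H+G-Exo.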
